A study of Caenorhabditis elegans with 2 samples.

Results

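The chaperone and heat shock protein genes are the protein-coding genes whose symbol in the Ensembl WBcel235 annotation begins with hsp-, dnj- or cct-. The rule found 59 gene records under 57 distinct symbols, of 19973 protein-coding gene records on the nuclear chromosomes. They comprised 22 hsp, 29 dnj and 8 cct records. By family they held 6 Hsp70 and Hsp110 genes, 2 Hsp90 genes, 29 J protein genes, 8 genes of the cytosolic chaperonin, 1 of the mitochondrial chaperonin and 13 small heat shock protein genes. By textbook knowledge 15 were classed as constitutive and 8 as stress-induced, and the other 36 were put in neither class.

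Binding of SEA-1, a T-box transcription factor, was measured by ChIP-seq, in which DNA held by a precipitated protein is sequenced. The material was whole early embryos of Caenorhabditis elegans (0 hours) from strain OP129, obtained by egg bleaching, and this is the only group, with 2 biological replicates. The strain carries the integrated transgene wgIs129, in which sea-1 is joined to TY1, EGFP and 3xFLAG, together with unc-119(+) as a marker over the allele unc-119(ed3). After sonication to a size range of 200-800, anti-GFP antibody was used for the precipitation. The fusion protein from the transgene was therefore what was precipitated, and a signal from whole embryos does not tell which cells it came from. The labels give no second condition, no stress treatment and no further source of the replicates than their numbers. The depth of sequencing is unknown.

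Chaperones bind unfolded or partly folded proteins and keep them from aggregating. Hsp70 proteins do so in cycles of ATP hydrolysis that J proteins start and Hsp110 proteins help to reset, chaperonins enclose a client in a barrel, and small heat shock proteins hold clients without using ATP. Some of these genes are active in every cell, while others are switched on by heat shock factor through heat shock elements, or by the unfolded protein responses of the endoplasmic reticulum and of mitochondria.

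Each gene was given the peaks with a summit in its promoter window, which reached 1000 bp upstream and 200 bp downstream of any annotated 5′ end. The authors' conservative list, made from both replicates, held 1249 peaks. The longer ranked list of the series held 103831 peaks, most of them weak, and those of the replicates held 71678 (replicate 1) and 68844 (replicate 2). The authors' signal value per peak comes without a stated normalization, so it ranks peaks within a list only, and the replicates' values share no stated scale.

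The sequences below show what lay under 5 of the 9 conservative summits and at the hsp-16 genes, whose pattern differed. Of the 5, hsp-1, hsp-60, cct-7 and cct-8 are shown because they hold matches to the letters marked in capitals, and dnj-14 because it holds none; 4 of the 9 summits had no GAANNTTC within 100 bp. These 5 run 75 bp to each side of the conservative summit at hsp-1 (chrIV:17278528-17278678, plus strand), hsp-60 (chrIII:1619044-1619194, plus strand), cct-7 (chrV:1871945-1872095, plus strand), cct-8 (chrIV:1094247-1094397, minus strand) and dnj-14 (chrX:4711977-4712127, minus strand). The next spans the 220 bp between the 5′ ends of hsp-16.2 and hsp-16.41 (chrV:1804958-1805177, plus strand), which held no conservative summit. The last is the conservative peak in the spacer between the inverted hsp-16.1 and hsp-16.48 copies (chrV:9088884-9089017, plus strand). They are from the RefSeq WBcel235 genome, the same assembly as ce11, and are written 5′ to 3′. Capitals mark matches to GAANNTTC, to TTCNNGAA or to the heat shock element of 3 units that joins them.
hsp-1: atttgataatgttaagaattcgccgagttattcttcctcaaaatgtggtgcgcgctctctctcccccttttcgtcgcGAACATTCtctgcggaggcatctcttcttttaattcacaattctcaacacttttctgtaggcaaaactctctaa
hsp-60: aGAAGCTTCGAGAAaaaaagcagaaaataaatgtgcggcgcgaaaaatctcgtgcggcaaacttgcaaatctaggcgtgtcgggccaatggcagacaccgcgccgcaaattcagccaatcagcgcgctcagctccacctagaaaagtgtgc
cct-7: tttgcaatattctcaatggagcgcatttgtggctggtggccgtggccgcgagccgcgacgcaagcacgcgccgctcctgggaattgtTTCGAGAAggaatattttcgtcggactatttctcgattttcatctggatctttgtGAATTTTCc
cct-8: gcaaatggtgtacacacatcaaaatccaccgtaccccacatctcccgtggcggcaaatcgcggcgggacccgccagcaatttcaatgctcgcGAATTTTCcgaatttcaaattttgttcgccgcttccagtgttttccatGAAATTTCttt
dnj-14: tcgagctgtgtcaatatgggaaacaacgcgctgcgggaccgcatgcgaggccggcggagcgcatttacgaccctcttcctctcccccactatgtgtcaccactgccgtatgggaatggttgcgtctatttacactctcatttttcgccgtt
hsp-16.2 and hsp-16.41: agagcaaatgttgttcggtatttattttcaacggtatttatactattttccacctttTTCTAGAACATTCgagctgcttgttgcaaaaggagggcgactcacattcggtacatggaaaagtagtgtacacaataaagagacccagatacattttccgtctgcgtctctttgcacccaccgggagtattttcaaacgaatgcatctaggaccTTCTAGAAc
hsp-16.48 spacer: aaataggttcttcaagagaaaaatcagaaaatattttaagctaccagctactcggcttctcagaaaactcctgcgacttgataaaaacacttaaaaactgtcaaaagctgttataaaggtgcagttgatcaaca

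A conservative summit lay in the promoter window of 9 of the 59 chaperone genes, or 15.3% (95% Wilson interval 8.24% to 26.5%, for counting error only), where 3.29% of all coding genes had one. The 9 were hsp-1, hsp-3, hsp-60, cct-7, cct-8, dnj-14, dnj-19, dnj-28 and dnj-29. In the second thresholded list made from both replicates 12 of 59 had a summit, where 3.28% of coding genes did; the additions were hsp-25, dnj-13 and a record of hsp-16.1. The own list of replicate 1 gave 6 members against 1.54% of coding genes, and that of replicate 2 gave 4 against 1.57%. The 4 genes in every one of these lists were hsp-1, hsp-60, dnj-28 and dnj-29, while dnj-14 and cct-7 were in the own list of replicate 1 only. The genes hsp-3, cct-8 and dnj-19 were in neither own list.

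Far more members had a peak of some kind. In the ranked series list 50 of 59 had a summit, where 69.9% of coding genes did. The ranked list of replicate 1 held summits for 51 members, against 59.6% of coding genes, and that of replicate 2 for 49, against 58.8%. With genes lacking a peak ranked lowest, the median of each gene's highest signal value in the ranked series list was 43.5 over the members and 25.7 over all coding genes. Of the members, 16 (27.1%) were in the top 10% of coding genes by that value. The members averaged 2.10 ranked series peaks in the window against 1.54 over all coding genes, and 1.61 annotated 5′ ends against 1.49, so their windows were slightly wider; the part of that in the counts was not tested. The plot of every member by family shows these values.

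**Figure D1:**
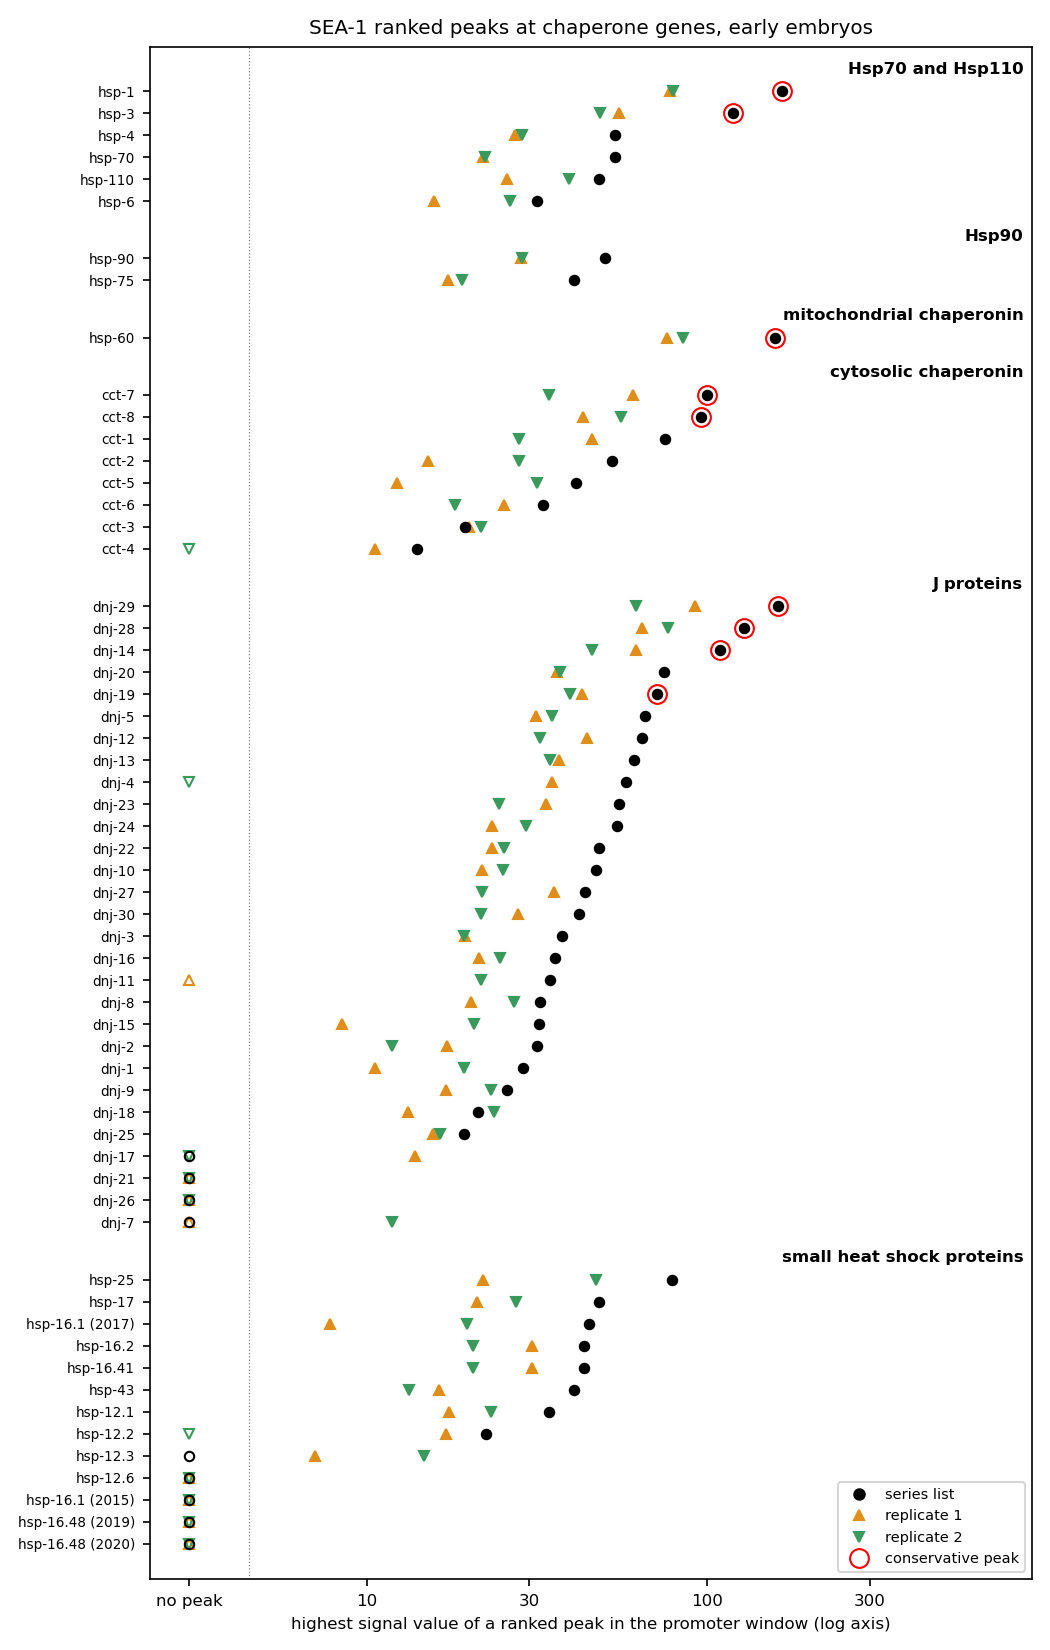
Highest signal value of a ranked peak in the promoter window of each of the 59 chaperone genes (log axis), in the ranked series list (black circles), replicate 1 (upward triangles) and replicate 2 (downward triangles), with red rings at the 9 genes with a conservative summit and open symbols at the left where no peak was listed. Records that share a symbol carry the last digits of their gene identifier, and the ringed genes reach 165.8 while 8 of the 13 small heat shock protein genes have any series peak.

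In the Hsp70 and Hsp110 family, 2 of 6 genes had a conservative summit, against 3.29% of all coding genes. At hsp-1, the constitutive cytosolic Hsp70, the signal value was 165.8 in the series list, 77.6 in replicate 1 and 79.1 in replicate 2. Its peak (chrIV:17278443-17278762) had its summit 356 bp upstream of the 5′ end and lay in the window of no other coding gene. At hsp-3, which encodes a BiP protein of the endoplasmic reticulum, the values were 118.7 in the series list, 55.1 in replicate 1 and 48.4 in replicate 2. Both replicates therefore placed hsp-1 above hsp-3. The hsp-3 summit (peak chrX:6091962-6092281) lay 2 bp downstream of a 5′ end, in an exon of the untranslated region, and was the only one of the 9 not upstream of its gene.

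The other 4 genes of the family had weaker peaks, absent from every thresholded list. The heat-inducible cytosolic gene hsp-70 had a signal value of 53.6 in the series list, 21.9 in replicate 1 and 22.2 in replicate 2. The gene hsp-4, the other BiP gene and a classic target of the unfolded protein response, had 53.7, 27.3 and 28.6 in the same order. Each BiP gene thus had a ranked peak in both replicates, with the value of hsp-3 above that of hsp-4 in each. For hsp-110, a nucleotide exchange factor of Hsp70, the values were 48.1, 25.8 and 39.2, with the best summits of the replicates 436 bp apart. The mitochondrial Hsp70 gene hsp-6 had 31.6 in the series list, 15.7 in replicate 1 and 26.2 in replicate 2, with the replicates' best summits 671 bp apart. It was the lowest of the family in the series list and in replicate 1, while hsp-70 was the lowest in replicate 2.

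The Hsp90 genes had no peak in a thresholded list. The cytosolic Hsp90 gene hsp-90, also called daf-21, had 49.9 in the series list, 28.3 in replicate 1 and 28.6 in replicate 2. The best summits of the replicates at hsp-90 lay 1562 bp apart, so these values are not from one site. The mitochondrial Hsp90 gene hsp-75 had 40.5, 17.3 and 19.1. By contrast hsp-60, the mitochondrial chaperonin, had 158.6 in the series list, 76.1 in replicate 1 and 84.8 in replicate 2. Its peak (chrIII:1618959-1619278) lay 623 bp upstream of the nearest hsp-60 5′ end and 190 bp upstream of that of Y22D7AL.10, which is therefore the nearer gene. With a window of 500 bp upstream hsp-60 had no conservative summit, and its highest ranked value was 45.9; that of hsp-75 was then 15.3.

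The cytosolic chaperonin is a ring of different subunits that folds actin and tubulin, and all 8 of its genes had a ranked series peak, with values from 14.02 to 99.7. Only cct-7 and cct-8 had a conservative summit. Over all coding genes 3.29% had a conservative summit and 69.9% a ranked series peak. At cct-7 the value was 99.7 in the series list, 60.4 in replicate 1 and 34.4 in replicate 2 (peak chrV:1871860-1872179, 226 bp upstream). At cct-8 it was 96.1, 43.3 and 55.7 (peak chrIV:1094162-1094481, 402 bp upstream), so the replicates ordered these genes oppositely. The summit at cct-7 was 213 bp from the 5′ end of T10B5.4 and lay in the noncoding gene T10B5.13, and that at cct-8 was 219 bp from the 5′ end of Y55F3AR.2. Each neighbour was nearer than the chaperonin gene, and counted by the nearest 5′ end alone 0 of 8 chaperonin genes had a conservative summit. Of the rest, cct-1 had 75.3 in the series list, 45.8 in replicate 1 and 28.0 in replicate 2. The lowest was cct-4, with 14.02 in the series list, 10.6 in replicate 1 and no peak in replicate 2. In the series list cct-2 was at 52.3, cct-5 at 41.3, cct-6 at 33.0 and cct-3 at 19.4. The low values depended on the window: with 2000 bp upstream cct-4 had 33.3, cct-3 had 35.7 and cct-6 had 53.9, while the other 5 kept their values.

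Of the 29 J protein genes 4 had a conservative summit (13.8%), and 25 had a ranked series peak, against 3.29% and 69.9% of all coding genes. The highest was dnj-29, at 161.9 in the series list, 91.9 in replicate 1 and 61.7 in replicate 2, with its summit 167 bp upstream (peak chrI:14113115-14113434). At dnj-28 the values were 128.3, 64.1 and 76.8, with the summit 98 bp upstream (peak chrI:2996230-2996549). The order of these genes was reversed between the replicates. At dnj-14, whose protein belongs to the cysteine string proteins of synaptic vesicles, the values were 109.2 in the series list, 61.6 in replicate 1 and 45.9 in replicate 2 (peak chrX:4711892-4712211). At dnj-19, a J protein of the DNAJA type, they were 71.4, 42.8 and 39.5 (peak chrV:5505091-5505410). The dnj-19 summit lay 394 bp upstream of that gene but 2 bp from the 5′ end of the nuclear hormone receptor gene nhr-47. The dnj-14 summit was 227 bp from the 5′ end of glit-1, against 304 bp from its own gene.

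Among the other J proteins, dnj-20 had a series value of 74.6, above the 71.4 of dnj-19, yet no conservative summit. It was followed by dnj-5 at 65.4, dnj-12 at 64.3 and dnj-13 at 60.8. The gene dnj-13 also had a summit of the second thresholded list, of value 59.7 and 793 bp upstream. The genes dnj-7, dnj-17, dnj-21 and dnj-26 had no peak in the ranked series list used here, and dnj-21 and dnj-26 had none in either replicate. In the other ranked list of the series dnj-7 had 54.2, dnj-17 had 21.6 and dnj-21 had 12.3, and dnj-26 again had none.

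None of the 13 small heat shock protein genes had a conservative summit (Wilson upper limit 22.8%), where 3.29% of all coding genes had one, a share within that limit. A ranked series peak was listed for 8 of the 13 (61.5%), near the 69.9% of all coding genes. The highest in the series list and in replicate 2 was hsp-25, a small heat shock protein found in muscle, at 78.7 in the series list, 22.0 in replicate 1 and 47.2 in replicate 2; its summit was in the second thresholded list. It was followed in the series list by hsp-17, at 47.9, 21.1 and 27.3, in no thresholded list. The genes hsp-16.2 and hsp-16.41 are divergent neighbours and share their best ranked peak in each list. Its value was 43.5 in the series list, 30.6 in replicate 1, the highest of the family there, and 20.4 in replicate 2. These values are not from one site, since the best summits of the replicates lay 448 bp apart. That of replicate 1 lay between the divergent 5′ ends, while those of replicate 2 and the series list lay inside hsp-16.2. A record of hsp-16.1 (WBGene00002017) had 44.98 in the series list, 7.80 in replicate 1 and 19.7 in replicate 2. This peak was in the second thresholded list, 957 bp upstream, and it overlapped the spacer peak described further on. The other record of hsp-16.1 and both records of hsp-16.48 had no peak in any ranked list.

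Compared by class, a conservative summit was found for 5 of the 15 constitutive genes (33.3%, interval 15.2% to 58.3%), where 3.29% of all coding genes had one. Of the 8 stress-induced genes 0 had one (upper limit 32.4%), so that the intervals overlap. The latter include the hsp-16.1 and hsp-16.48 records, in whose windows at most 6.578% of the 32-base words occur once in the genome. A missing peak there cannot be read as missing binding, and the limit counts these repeated copies as separate genes. Of the 36 genes in neither class 4 had a conservative summit (11.1%). The constitutive genes were hsp-1, hsp-3, hsp-60, cct-7 and cct-8; the own list of replicate 1 kept 3 of them and that of replicate 2 kept 2. Ranked series peaks were found for 15 of 15 constitutive and 5 of 8 stress-induced genes, where 69.9% of coding genes had one. The stress-induced genes without one were all hsp-16.1 or hsp-16.48 records. The median highest signal values of the constitutive and stress-induced genes were 49.9 (range 14.02 to 165.8) and 43.5, the latter with genes lacking a peak ranked lowest. Among the stress-induced genes with a peak the range was 43.5 to 53.7, within that of the constitutive genes. The contrast in conservative summits depended on the window: with 2000 bp upstream it was 6 of 8 for the stress-induced genes, all of them hsp-16 genes, where 4.57% of coding genes had a summit. These summits belong to the same peaks that are given further on as lying past the 3′ ends of hsp-16 genes. Counting hsp-3, hsp-6 and hsp-60 as stress-induced, since mitochondrial or endoplasmic reticulum stress induces such genes, gave 3 constitutive and 2 stress-induced genes with a summit. The classes were not tested against each other, since genes are not replicates.

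**Figure D2:**
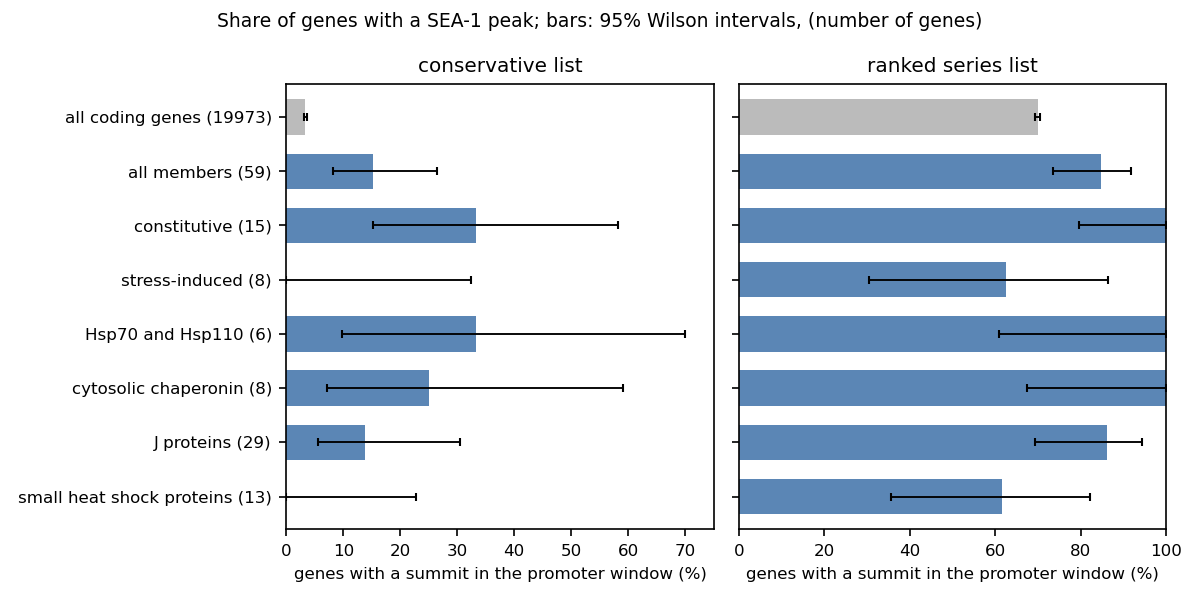
Percentage of genes with a summit in the promoter window in the conservative list (left) and the ranked series list (right), for all coding genes (grey) and for chaperone genes by class and family (blue), with 95% Wilson intervals and the number of genes in parentheses. In the conservative list the constitutive class stands at 33.3% and the stress-induced class at 0%, with overlapping intervals, against 3.29% for all coding genes. The stress-induced class and the small heat shock proteins include the hsp-16.1 and hsp-16.48 records, which lie in repeated sequence.

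The replicates ordered the chaperone genes alike in broad terms. Of the 47 members with a ranked peak in both, 17 had the higher value in replicate 1 and 30 in replicate 2, with medians of 23.4 and 26.2. Since the replicates' values share no stated scale, neither this split nor the medians tell in which replicate these genes were bound more. Across these genes Pearson's r of the log10 values was 0.75 and Spearman's rho 0.71. The best summits lay within 100 bp of each other for 25 of the 47, and among these r was 0.82 and rho 0.85. These are descriptions across genes of the same libraries, and some of the genes share a peak. The 9 genes with a conservative summit had values of at least 42.8 in replicate 1 and at least 34.4 in replicate 2.

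**Figure D3:**
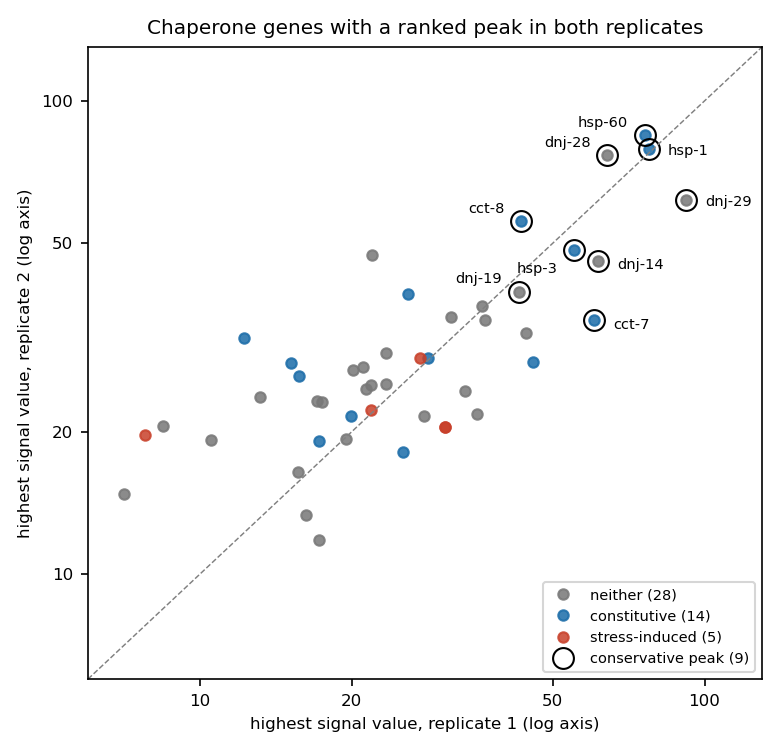
Highest signal value of each of the 47 chaperone genes with a ranked peak in both replicates, replicate 1 against replicate 2 (log axes), coloured by class, with rings at the 9 genes with a conservative summit; the dashed line marks equal values. The ringed genes lie at the upper right, and hsp-16.2 and hsp-16.41 fall on the same point because they share their best peak in each replicate.

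Of the 9 conservative peaks at chaperone genes, 8 lay in sequence intergenic to coding genes and upstream of their gene, with a median distance of −304 bp over the 9; over all coding genes with a conservative summit it was −291 bp, and 92.2% lay upstream. Their median signal value was 118.7, against 103.8 (quartiles 85.5 and 132.1) over all such coding genes. The deposited −log10 q-value of these peaks ran from 0.637 at dnj-19 to 2.28 at hsp-60. A second coding gene shared 7 of the 9 peaks, and 29.5% of the 529 conservative peaks in any coding window were shared. The 9 were found through their genes, and a shared peak can be found through more genes, so these shares are not directly comparable. Only 4 of the 9 summits were nearest to the chaperone gene's own 5′ end, namely those at hsp-1, hsp-3, dnj-28 and dnj-29. Which of the genes at a shared peak the binding concerns cannot be told apart. None of the 9 summits had an annotated small RNA gene (snRNA, snoRNA, tRNA) within 100 bp. However, 3 of the 9 lay in annotated genes of other noncoding RNA, those at dnj-14, dnj-19 and cct-7. The share of this over all conservative summits was not counted. The GC content within 100 bp of the summit had a median of 47.8%, against 46.3% (quartiles 40.8% and 50.8%) over all coding genes with a conservative summit. It was highest at hsp-3 (62.2%) and lowest at hsp-1 (37.3%).

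Heat shock elements were searched on both strands, as 3 units that alternate between the triplet GAA and its complement, starting with either, with 2 free bases between units. From 250 bp before to 50 bp after the 5′ end such an element was present in 7 of the 8 stress-induced genes, hsp-4 being the exception, and in 3 of the 15 constitutive genes, hsp-1, hsp-110 and hsp-90. It was present in 1.97% of all coding genes. The 7 stress-induced genes do not have 7 separate promoters. The hsp-16.1 and hsp-16.48 records lie in identical inverted copies, and hsp-16.2 and hsp-16.41 share the stretch between their divergent 5′ ends. Of the 9 genes with a conservative summit 1 had the element in this 5′ window, hsp-1. Within 100 bp of the summit 1 of the 9 had it, hsp-60, against 1.37% of all coding genes with a conservative summit. Of the 11 members with the element near the 5′ end, hsp-1 alone had a conservative summit in its window, where 3.29% of all coding genes had one. The 11 include the hsp-16.1 and hsp-16.48 records, in whose windows at most 6.578% of the 32-base words occur once in the genome. A missing peak there cannot be read as missing binding.

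Shorter pieces of the element were seen more often, and they overlap it by construction. TTCNNGAA lay within 100 bp of the summit at cct-7 and hsp-60, against 10.2% of coding genes with a conservative summit. GAANNTTC, which was added after the values were seen, lay there at 5 of the 9, namely hsp-1, hsp-60, cct-7, cct-8 and dnj-19, against 10.5%. Over the 50 members with a ranked series summit it was 12, or 24.0%, against 13.2% of coding genes. The T-box core GGTGTGA, searched on both strands, was within 100 bp of the summit at 0 of the 9, against 2.28%, and at 1 of the 50 ranked members, dnj-30, against 1.80%. A match describes letters in a window and no site, and its absence says nothing of the factor.

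The hsp-16 genes lacked conservative summits in their promoter windows but had them past their 3′ ends. This position was counted after the values had been seen. A conservative summit lay within 500 bp past the 3′ end of 12 of the 59 members (20.3%), where 1.1% of coding genes had one, and all 6 hsp-16 genes were among the 12. Both hsp-16.48 records were counted on the same peak, which was the only one of these hsp-16 peaks found in an own list. With the own list of replicate 1 the count was 3 members, 2 of them hsp-16 genes, where 0.521% of coding genes had such a summit. With that of replicate 2 it was 4 members, 2 of them hsp-16 genes, where 0.576% did. Within 250 bp it was 5 members and 0 hsp-16 genes, where 0.631% of coding genes had one. For 7 of the 12 genes the peak lay in no coding promoter window.

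The strongest of these peaks lay in the 662 bp spacer between the inverted copies of the hsp-16.1 and hsp-16.48 pair (chrV:9088884-9089017), printed above. Its signal value was 282.3, rank 58 of the 1249 conservative peaks and above all 9 promoter peaks of the chaperone genes. It was 154.7 in replicate 1 and 109.6 in replicate 2, and the peak was in both own lists. Its summit lay 304 bp past the 3′ end of one hsp-16.48 record and 359 bp past that of the other. It had a GC content of 34.3% and no match to the letters searched.

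The other hsp-16 peaks were weaker. That past hsp-16.1 at chrV:9086712-9087031 had 105.6 in the series list, 62.5 in replicate 1 and 47.6 in replicate 2. That past the other hsp-16.1 record, chrV:9090913-9091232, had 78.3, 45.8 and 36.7. Each of these peaks lay at an snRNA gene, T27E4.11 and T27E4.10. At the other locus, the peak 336 bp past hsp-16.2 (chrV:1803838-1804157) had 75.8, 39.6 and 36.4, and lay in the promoter window of srt-41. The peak 304 bp past hsp-16.41 (chrV:1806019-1806338) had 76.5, 42.8 and 49.2 and was absent from the second thresholded list. Both loci thus had peaks at the outer flanks of the gene group and none in the conservative list between divergent 5′ ends.

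**Figure D4:**
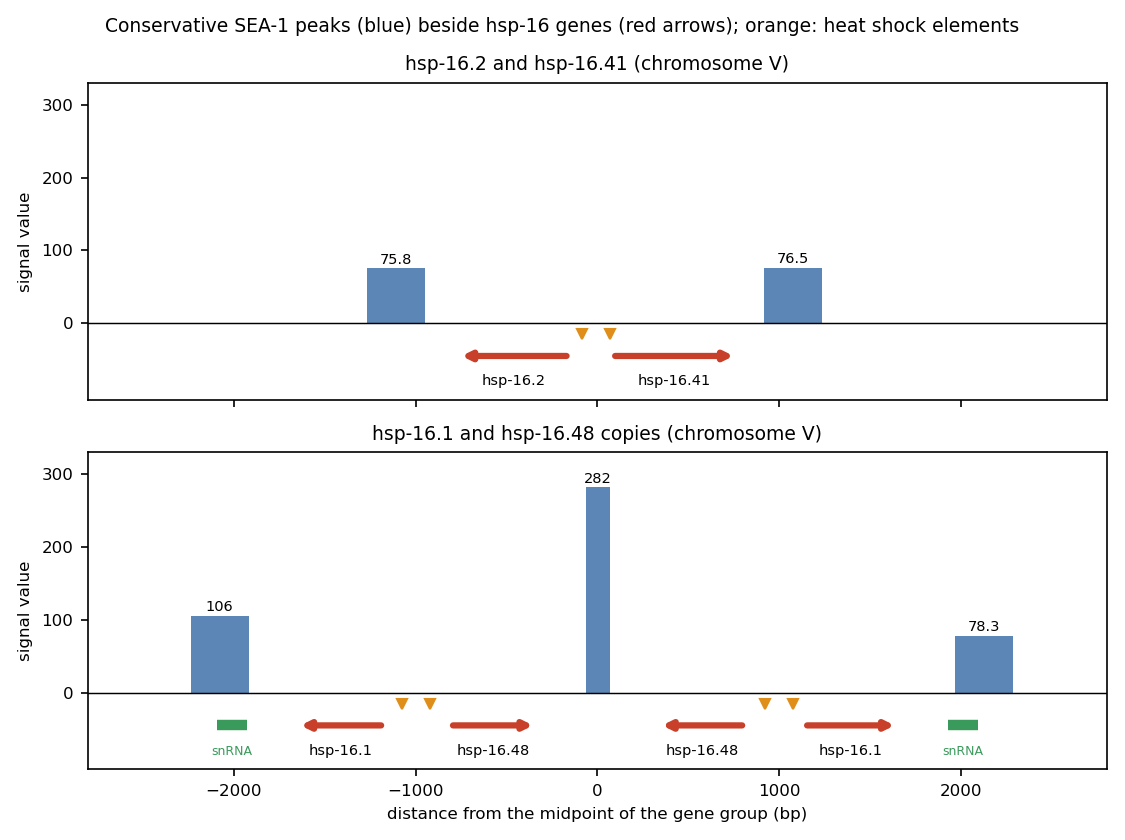
Conservative peaks (blue bars, height: signal value) around the hsp-16.2 and hsp-16.41 pair (upper) and the inverted hsp-16.1 and hsp-16.48 copies (lower), both on chromosome V, by distance in bp from the midpoint of the gene group; red arrows are the genes in their direction of transcription, green bars snRNA genes and orange triangles heat shock elements of 3 units. The heat shock elements lie between divergent 5′ ends, except that the element nearest hsp-16.41 reaches a few bases past the 5′ end of that gene. The peaks, up to 282.3, lie past the 3′ ends.

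The hsp-16.1 and hsp-16.48 genes lie in repeated sequence. The inverted copies were identical over 1325 of 1325 bp, over a further 432 bp outward and over 124 bp inward. In the promoter windows of the 4 genes there, 5.995% and 6.578% of the 32-base words of the 2 hsp-16.1 records occurred once in the genome, and none of those of the hsp-16.48 records. How reads that match both copies were treated is not given in the sources used here, so the missing peaks there cannot be read as missing binding. The windows of hsp-16.2 and hsp-16.41 were 97.6% and 95.8% unique, and there a weak peak but no conservative summit was listed. The spacer peak was 100% unique, but the peaks at the snRNA genes T27E4.11 and T27E4.10 were only 46.6% and 67.8% unique. Over all members 50 of 59 windows were at least 90% unique.

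Past the other 3′ ends, the peak 221 bp past dnj-5 had a signal value of 201.2, 80.3 in replicate 1 and 119.0 in replicate 2, and lay at a tRNA gene. That 189 bp past hsp-12.3 had 78.0 in the conservative list and lay at the snRNA gene F38E11.11. The peak past dnj-13 (111.7) lay in the promoter window of F54D5.7, that past dnj-16 (78.8) in that of xbp-1, and that past hsp-110 (77.1) in that of ufbp-1. A peak 193 bp past cct-7 (80.9) lay in no coding window. Without peaks at small RNA genes the count of 12 was 8, where 0.726% of coding genes had such a summit, and that of the hsp-16 genes was 4.

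Of 30 co-chaperone and stress-response genes, 3 had a conservative summit (10%, interval 3.46% to 25.6%), where 3.29% of all coding genes had one. A ranked series peak was listed for 28 of the 30, against 69.9% of all coding genes. The 3 were bag-1, a nucleotide exchange factor of Hsp70, xbp-1, a transcription factor of the unfolded protein response, and pfd-5, a prefoldin subunit. At bag-1 the value was 104.1 in the series list, 62.2 in replicate 1 and 51.6 in replicate 2. At xbp-1 it was 78.8, 42.0 and 34.9, from the peak already named past dnj-16, and at pfd-5 it was 72.7, 46.5 and 34.2. Only bag-1 was also in the second thresholded list, so that 1 of the 30 (3.33%) had a summit there, near the 3.28% of all coding genes. The own list of replicate 1 held 1 of the 30, bag-1, where 1.54% of coding genes had a summit. That of replicate 2 held 0, where 1.57% did. The heat shock factor gene hsf-1 had no conservative summit; its highest ranked value was 58.9 in the series list, 19.98 in replicate 1 and 32.6 in replicate 2.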

How the data were processed

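Chromatin immunoprecipitation with an antibody against GFP was analysed from the authors' deposited peak lists on build ce11, per the labels. For the aligner, caller and depth the sources used here give nothing. Signal values were deposited without a stated normalization. The deposited score, which the authors derived from the irreproducible discovery rate, and the deposited −log10 q-value only described peaks. Past 2 on the −log10 scale of that rate, the ranked series list named by the rule held the 1241 peaks of the second thresholded list. It held 996 of the 1249 conservative peaks past that threshold, where the other ranked series list held all of the latter. A conservative peak below the threshold could still be in the ranked series list, as at pfd-5 (72.7 in both).

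Genes and 5′ ends are from Ensembl release 115 (WBcel235, nuclear chromosomes), positions 1-based. Each gene took its highest signal value in the window. Shares have Wilson intervals at 95%; no p-value was computed, since there is 1 group and the members and lists were chosen with earlier results of these data known. In the annotation daf-21 is listed as hsp-90, hsp-16.11 and hsp-16.49 under the symbols hsp-16.1 and hsp-16.48, and hsf-2 had no match.

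Named were members with a summit in any thresholded list, all constitutive and stress-induced members, the 4 of highest ranked signal in each family, members with a conservative summit within 1000 bp outside the window, context genes with a conservative summit, and hsf-1. Genes past 3′ ends, neighbours of shared peaks and members without ranked peaks were named after values were seen. Python 3.11.15, numpy 2.4.6, pandas 2.3.3, scipy 1.17.1 and matplotlib 3.10.9 were used; the assignment of summits to windows was tested on simulated data. Alternatives changed the window, list, threshold, overlap, replicates, classes and motif window.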

Additional observations from a re-analysis of the deposited data

How the results depend on the processing

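No paired analysis was possible because the labels give 1 group. The count of 9 members with a conservative summit was 15 with 2000 bp upstream (4.57% of coding genes) and 12 in the second list (3.28%). It was 8 with 500 bp upstream (2.37%) and among the stronger peaks (1.97%), and 9 with 500 bp downstream (3.54%), any overlap (3.63%) or small RNA peaks left out (2.85%). The own lists gave 4 to 6 (1.57% and 1.54%). Counted by the nearest 5′ end alone, an alternative chosen after seeing the data, it was 4 (2.44% of coding genes). The constitutive count of 5 was 2 to 3 in the own lists, 2 by nearest 5′ end and 3 with the other classing; the stress-induced count of 0 was 6 with 2000 bp upstream, 1 in the second list and 2 with the other classing. By family, own lists gave 1 to 1 Hsp70 and Hsp110 genes, 2 to 3 J protein genes and 0 to 1 cytosolic chaperonin genes. By nearest 5′ end there were 2 J protein, 0 cytosolic and 0 mitochondrial chaperonin genes, and with 500 bp upstream 0 mitochondrial chaperonin genes. Small heat shock protein genes numbered 6 with 2000 bp upstream and 2 in the second list. The co-chaperone count of 3 was 1 in the second list, 1 among the stronger peaks and 0 to 1 in the own lists.

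The median signal value of constitutive genes (49.9) was 45.9 with 500 bp and 52.3 with 2000 bp upstream, and 25.8 to 28.6 in the replicates' ranked lists. That of stress-induced genes (43.5) was 21.2, 77.9 and 14.8 to 20.1. Within 250 bp of conservative summits 2 of the 9 genes held a heat shock element, against 3.96% of all coding genes with such a summit. At this width 4 of the 9 held TTCNNGAA, against 26.8%. The counts past 3′ ends were added after seeing the data: 12 members became 5 within 250 bp and 3 to 4 in the own lists, and 6 hsp-16 genes became 0 and 2 to 2. Both hsp-16.48 records were counted on the same peak in these counts. The cause of these shifts was not tested. The own lists hold fewer peaks (536 and 556), and replicates' values share no stated scale. Of 71 signal values of named genes under other windows or the other ranked list, 62 were unchanged or moved by less than the spread between replicates. Most of the 62 were exactly unchanged, because the same best peak was kept. Only hsp-6 and cct-3 with 500 bp upstream, and hsp-110 with both windows, moved within that spread. The other 9 values moved by more. They were hsp-60 (45.9), hsp-4 (44.6) and hsp-75 (15.3) with 500 bp upstream, and hsp-16.1 (282.3), hsp-16.2 (76.5), hsp-16.41 (75.8), cct-6 (53.9), cct-3 (35.7) and cct-4 (33.3) with 2000 bp. With 500 bp upstream hsp-16.1 had no peak left, and this case is not among the 71. With 2 replicates, no control values used and unknown depth, a missing peak shows only that none was listed.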
